A study of Mus musculus with 24 samples.

Results

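The genes described here are 41 mouse genes of the lysosome, the acidic compartment in which a cell takes apart what it has engulfed. They were listed by gene symbol, with earlier results of these data known, and had to pass a filter on low counts. By role they are 12 proteases and peptidases, 9 glycosidases and sulfatase genes, and 7 genes for lipid hydrolases, lipid carriers and their activators. The others are 6 membrane proteins, 5 subunits of the vacuolar proton pump (v-ATPase) and 2 transcription factors of lysosomal genes. All 41 were found among the 54838 genes of the count table. The filter on low counts left 13116 genes for testing. Because passing such a filter was part of the rule, that all 41 are among them is no result about the members. The lowest member count was 74 in any library. The question asked of them was whether particles given to microglia change the RNA of the lysosome within 2 h.

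Poly-A RNA came from SIM-A9, a spontaneously immortalised mouse microglial line, in 24 libraries, 3 for each of 8 groups. After 2 h in 270 uL of DMEM/F12 without serum, wells received 30 uL of a test sample at 10 times its final strength, and RNA was extracted 2 h later. The groups were untreated control cells; LPS (bacterial lipopolysaccharide, the inflammatory positive control); (GT)6 SWCNT, single-walled carbon nanotubes carrying the short (GT)6 DNA; COOH SWCNT, carboxylated nanotubes; the calcium dye Fura-2; the compound DiBASC2; the voltage dye Di-2-ANEPEQ; and AAV, adeno-associated virus. The labels spell Di-2-ANEPEQ as Di2ANEPEQ, Di2ANEQPEQ and Di-2-ANEQEQ. The columns of the count table spell DiBASC2 as DiSBAC2, and it is counted among the dyes below. The treatment field of the DiBASC2 libraries reads Di-BASC0, Di-BASC1 and Di-BASC2, so those 3 libraries were grouped by title. The labels give no concentration, no vehicle for the untreated wells and nothing on separate cultures, so p-values measure only the spread between these libraries, which may be technical. The index in the library names runs in blocks by group, and the labels do not say what it counts. Any effect that follows this index cannot be told apart from the treatment.

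Total counts ranged from 17364272 to 29259221 per library, and the TMM scaling factors from 0.955 to 1.031, lowest in the 3 LPS libraries (0.955 to 0.964). All 24 pairs of libraries of 1 group differed by more than sampling noise (chi-square of their counts over its degrees of freedom, 2.46 to 19.4). The 12 microglial markers all lay above 1 CPM (the read count scaled to the library's size), from P2ry12 at 2.28 to Cd68 at 848, and summed to between 2207 and 2437 CPM. Markers of astrocytes, neurons, fibroblasts, endothelial cells, T cells and neutrophils each summed to at most 0.603 CPM in any library. The 3 oligodendrocyte markers summed to between 3.41 and 5.80 CPM, of which Mbp made up 4.42 on average, and Mog was at 0 in all libraries. In bulk RNA, fewer cells of a kind and less RNA per cell cannot be told apart.

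Lysosomal hydrolases are made in the endoplasmic reticulum, tagged in the Golgi apparatus with mannose 6-phosphate and delivered by endosomes, and they work at the acidic pH that the v-ATPase maintains. Cathepsins cut proteins, glycosidases and sulfatases take apart glycans, and lipases, saposins and the Niemann-Pick proteins handle lipids and cholesterol. Many of these genes carry a short E-box in their promoter that is bound by TFEB and TFE3, factors held in the cytoplasm by mTORC1 at the lysosomal surface and released when the lysosome is starved or stressed. Microglia take up debris, synapses and microbes and are rich in lysosomes.

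In control cells, level per exon length (RPKM, CPM divided by the length of the gene's merged exons in kilobases) spanned from 2.43 for Tfeb to 844 for Ctsz, with a median of 51.9 over the members. Cysteine cathepsin Ctsz was followed by Ctsb at 549, the aspartic protease Ctsd at 545, the saposin precursor Psap at 466 and Ctss at 379 RPKM. At the low end, next to Tfeb, stood the heparan sulfate sulfamidase Sgsh at 2.5, the collagen-cutting cathepsin Ctsk at 3.05 and the calcium channel Mcoln1 at 4.30 RPKM. Together the members took 1.87% ± 0.0146 (SD, n = 3) of all counts in control cells. That share lay between 1.73% and 1.80% in the 3 LPS libraries, below every library of the other groups, whose lowest was 1.86%. In (GT)6 SWCNT it was 1.90% ± 0.0283 and in COOH SWCNT 1.94% ± 0.0222 (SD, n = 3). These shares are of raw counts, without the TMM factors, which were lowest in LPS (0.955 to 0.964). How much of the lower LPS share goes with those factors was not tested. The spread among libraries of 1 group was small, with a median coefficient of variation over the members of 2.89% and a range from 1.26% to 10.1%, the latter for Ctsk.

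**Figure D1:**
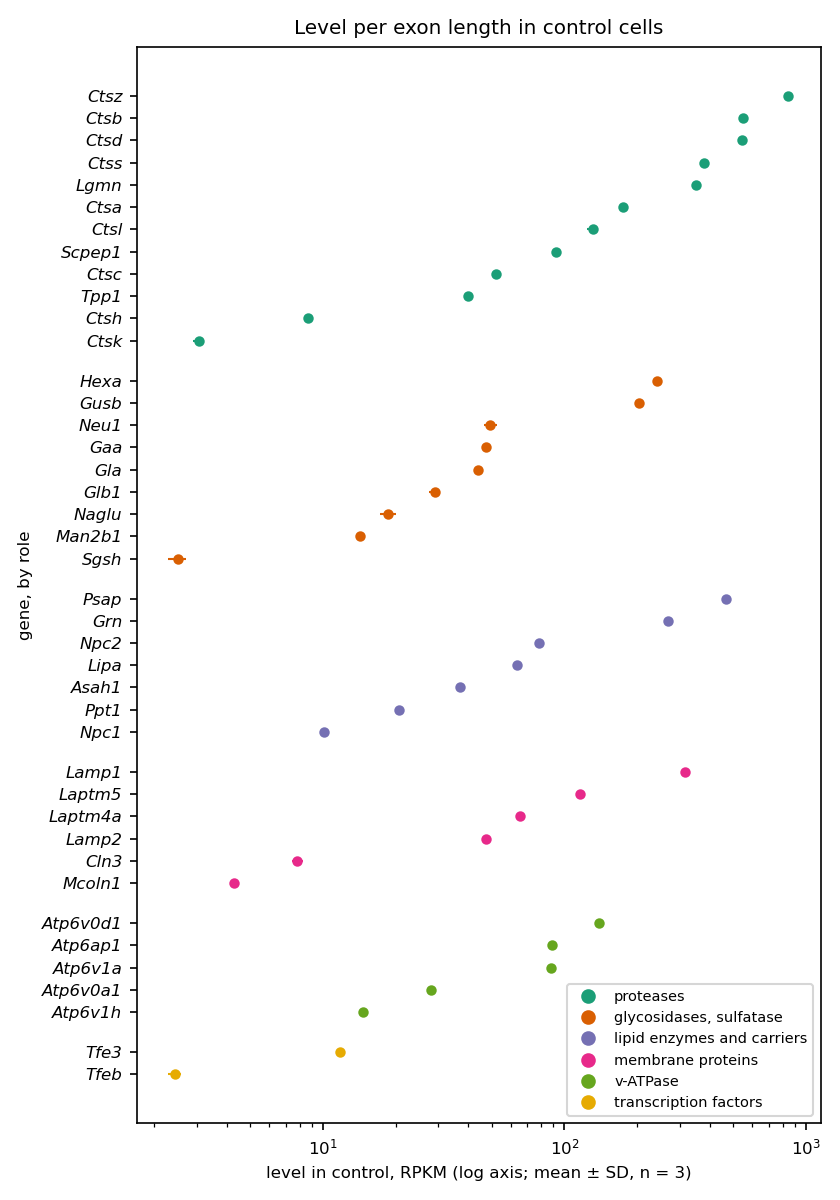
Level per exon length of each listed gene in the 3 control libraries (RPKM, log axis; points are means and bars are ± 1 SD, n = 3), ordered within role by level. The range runs from 2.43 RPKM for Tfeb to 844 RPKM for Ctsz, and the 2 transcription factors lie at 2.43 for Tfeb and 11.7 for Tfe3.

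Members changed in small steps, and the direction depended on the treatment. Each gene was tested with edgeR's quasi-likelihood test on the raw counts of all 24 libraries, with Benjamini-Hochberg adjustment over the 13116 genes of a comparison, and is called changed at an adjusted p under 0.05. Over the 7 treatments and 41 members, 40 of 287 tests against control were called, with absolute log2 fold changes from 0.09 to 0.58. In all 40 the 3 treated libraries did not overlap the 3 control libraries, as in 95.9% of such calls over all genes tested. LPS changed 9 members, 2 higher and 7 lower, which is 22.0% of the list beside 28.3% of all genes tested (13.8% higher). (GT)6 SWCNT also changed 9, 6 higher and 3 lower, beside 20.4% of all genes (10.5% lower). COOH SWCNT changed 11, 10 higher and 1 lower, 26.8% of the list beside 20.0% of all genes (10.6% lower). At an unadjusted p under 0.05 of the same test, the share was 51.2% of members beside 36.9% of all genes in LPS. It was 41.5% beside 30.6% in (GT)6 SWCNT and 29.3% beside 31.3% in COOH SWCNT. In LPS and COOH SWCNT, whether members lay above or below all genes therefore depended on the threshold. Shares of all genes, here and below, include genes with fewer counts than any member. Of 10342 genes averaging at least 50 counts, 2604 were called with COOH SWCNT, 2675 with (GT)6 SWCNT and 3519 with LPS. For (GT)6 SWCNT that share lies above that of the members, even with Lipa then called too. Whether its members lay above or below other genes thus depended on the count filter. For direction, 24.4% of members were higher in COOH SWCNT beside 9.39% of all genes, 14.6% were higher in (GT)6 SWCNT beside 9.90%, and 17.1% were lower in LPS beside 14.5%. The median log2 fold change of the members, with that of all genes after it, was -0.04 and -0.01 with LPS, 0.04 and -0.02 with (GT)6 SWCNT, and 0.03 and 0.00 with COOH SWCNT. The same 3 control libraries serve all 7 comparisons. Upper-quartile factors gave 10 members for each nanotube group, whereas for LPS other scalings moved the split from 2 higher and 7 lower to 5 and 6 with DESeq2 size factors and to 1 and 15 with upper-quartile factors. Over all genes the LPS split moved likewise, from 1809 higher and 1908 lower to 1945 and 1777 with DESeq2 size factors and to 1455 and 2660 with upper-quartile factors. Leaving out 1 library took the COOH SWCNT count to 7 without control 2 or without COOH SWCNT 2, and the (GT)6 SWCNT count to between 6 and 10.

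**Figure D2:**
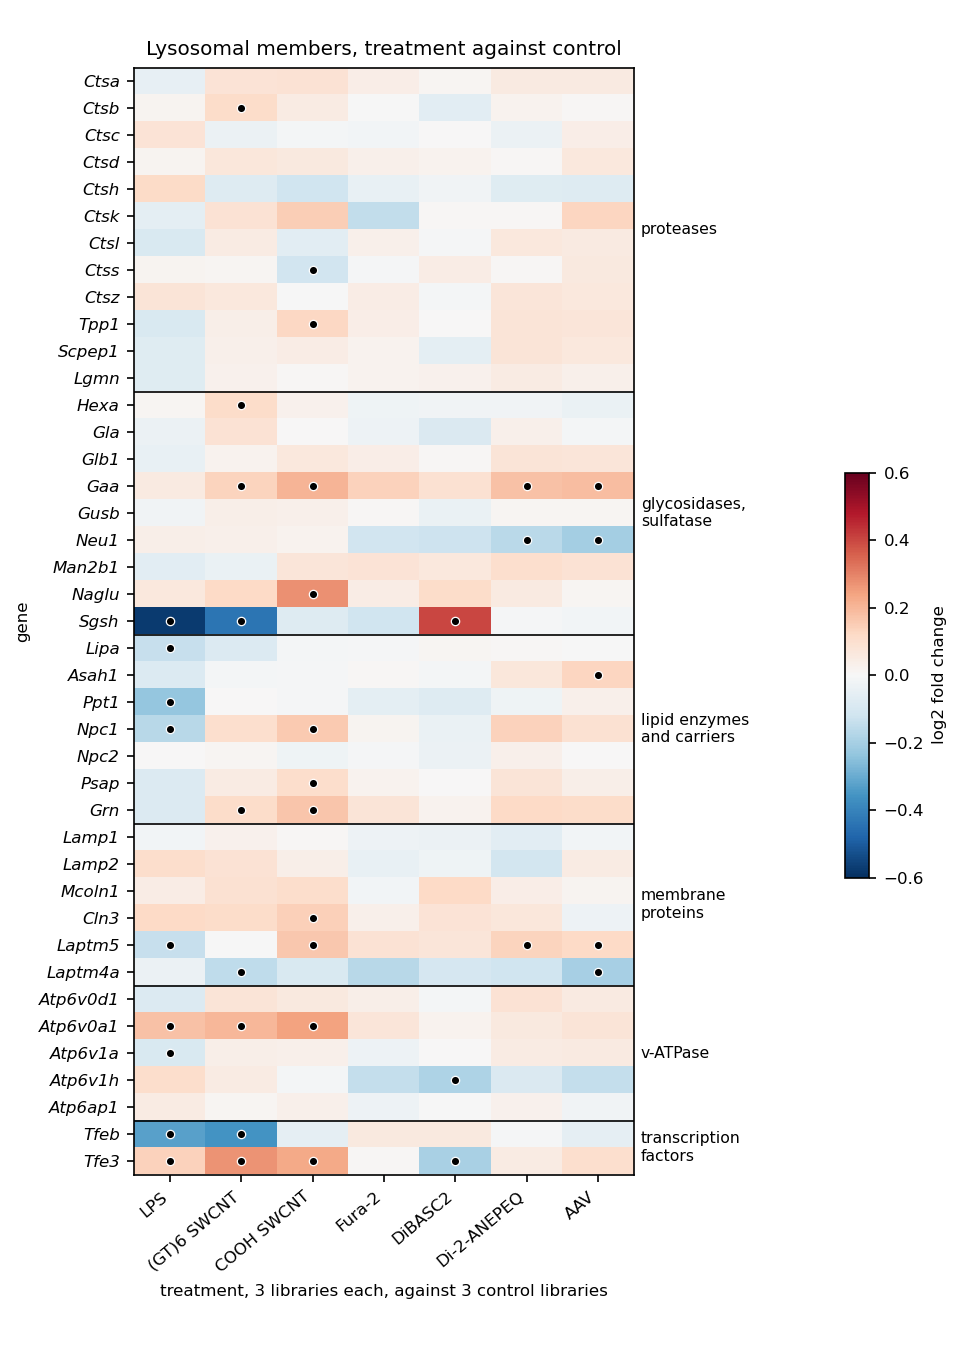
Log2 fold change against the 3 control libraries (colour, from -0.6 to 0.6) for the 41 listed genes in rows, grouped by role, and the 7 treatments in columns, 3 libraries each. A dot marks an adjusted p under 0.05: 9 genes for LPS, 9 for (GT)6 SWCNT, 11 for COOH SWCNT and between 0 and 5 for each of the other 4 treatments.

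**Figure D3:**
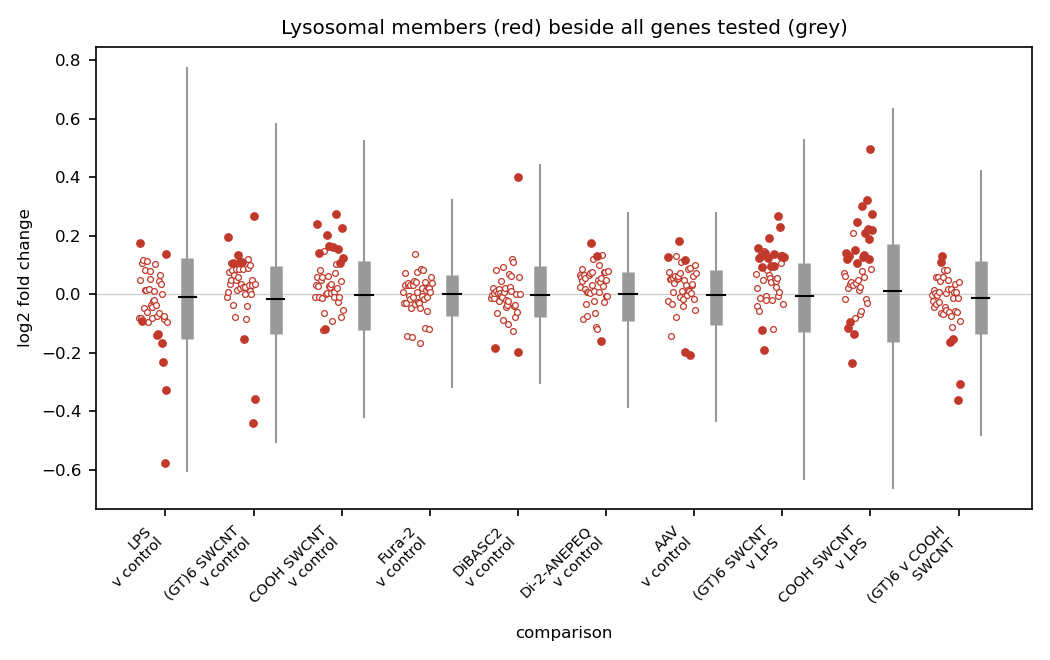
Log2 fold changes of the 41 listed genes (red; filled where the adjusted p was under 0.05) beside those of all 13116 genes tested (grey: thin line from the 5th to the 95th percentile, box from the 25th to the 75th, black line at the median) in the 10 comparisons. The red points lie mostly within the grey lines; against LPS most filled points lie above 0, with 15 of 17 for (GT)6 SWCNT and 17 of 21 for COOH SWCNT.

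Of the 41 members, 22 were called against control in at least 1 treatment and 19 in none, a share of 53.7% beside 46.6% of all genes tested. Those 19 include the abundant cathepsin genes Ctsz and Ctsd, the membrane glycoproteins Lamp1 and Lamp2, the calcium channel Mcoln1, the legumain gene Lgmn and the sterol carrier Npc2. Atp6v0a1 and Tfe3 were called, and higher, in LPS and in both nanotube groups. Gaa and Grn were higher in both nanotube groups, and Laptm5 and Npc1 were lower in LPS and higher in COOH SWCNT. In the annotation, 15 members (Ctsa, Ctsb, Ctsd, Ctsl, Ctsz, Scpep1, Hexa, Glb1, Sgsh, Ppt1, Npc1, Grn, Lamp1, Cln3 and Atp6v1h) share exon bases with another gene, and whether the counting used strand is not given in the sources used here, so reads of the shared stretches cannot be told apart.

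The 2 transcription factors moved in opposite directions in LPS and in (GT)6 SWCNT. Tfeb, the factor best known for switching on lysosomal genes, stood at 13.2, 13.4 and 14.8 CPM in the 3 control libraries, 10.6, 11.7 and 10.6 with LPS, 10.5, 12.3 and 9.2 with (GT)6 SWCNT and 13, 13 and 13.8 with COOH SWCNT. Every LPS and (GT)6 SWCNT library lay below every control library, whereas the COOH SWCNT libraries overlapped control. Tfeb fell in LPS (-0.33 ± 0.10, adjusted p = 0.0102) and in (GT)6 SWCNT (-0.36 ± 0.10, adjusted p = 0.00660), and was not called in COOH SWCNT (-0.05 ± 0.09, adjusted p = 0.765). These are log2 fold changes ± SE, the form used from here on. The Tfeb calls depended on single libraries: without control 3 the adjusted p was 0.0721 in LPS and 0.0682 in (GT)6 SWCNT, without LPS 3 it was 0.0545, and without (GT)6 SWCNT 3 it was 0.0663.

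Tfe3, a close relative of Tfeb that binds the same E-box, read 107, 109 and 109 CPM in control, 119, 119 and 120.4 with LPS, 136, 133 and 123 with (GT)6 SWCNT, 128, 125 and 128 with COOH SWCNT and 93.8, 94.1 and 96.5 with DiBASC2. All LPS and nanotube libraries were above all control libraries, and all DiBASC2 libraries below them. Tfe3 rose in (GT)6 SWCNT (0.27 ± 0.04, adjusted p = 1.20e-05), in COOH SWCNT (0.23 ± 0.04, adjusted p = 0.000197) and in LPS (0.14 ± 0.04, adjusted p = 0.0158), and fell in DiBASC2 (-0.20 ± 0.04, adjusted p = 0.00487). With upper-quartile factors the LPS change was 0.10 and no longer called (adjusted p = 0.0925). Its levels in the other 3 groups were 107, 103 and 117 CPM with Fura-2, 114, 108 and 115 with Di-2-ANEPEQ and 116, 122 and 112 with AAV, none of them called. Tfeb in those groups was 14.7, 13.9 and 14.4, 12.3, 15.5 and 13.4 and 12.6, 13 and 14.3 CPM, and 15, 15.3 and 12.8 with DiBASC2, again with no call.

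**Figure D4:**
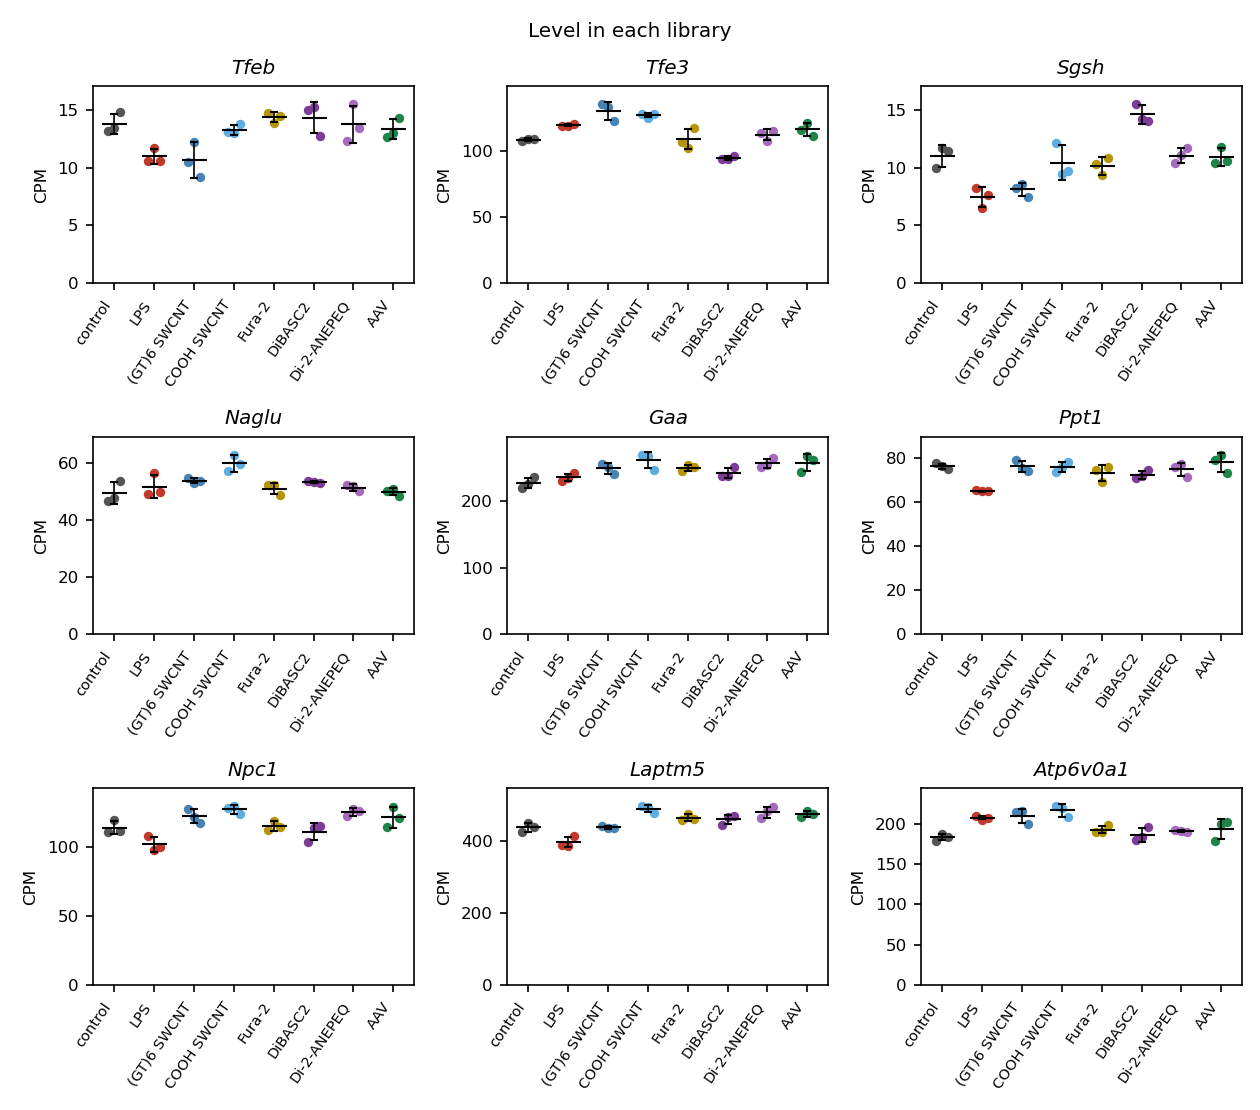
CPM in each library (points) with the group mean and ± 1 SD (bars, n = 3) for 9 listed genes in the 8 groups, each axis starting at 0. Tfeb is low in LPS and (GT)6 SWCNT (9.20 to 12.3 CPM), Tfe3 is above control in LPS and both nanotube groups (119 to 136 CPM), and Sgsh is low in LPS and (GT)6 SWCNT and high in DiBASC2 (14.1 to 15.5 CPM).

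Among 17 tested genes of TFEB and mTORC1 control at the lysosome, 5 were called in each of LPS (2 higher, 3 lower), (GT)6 SWCNT (4 and 1) and COOH SWCNT (1 and 4). Over all genes, 28.3% were called in LPS (13.8% higher), 20.4% in (GT)6 SWCNT (9.90% higher) and 20.0% in COOH SWCNT (9.39% higher). Tfec, the third relative of Tfeb and a factor of macrophages, gave the largest rise of any lysosomal gene listed in LPS, from 20.7, 19.3 and 20.3 to 44.6, 45.5 and 45.3 CPM (1.17 ± 0.07, adjusted p = 7.36e-16). In COOH SWCNT it fell (-0.27 ± 0.08, adjusted p = 0.0146), a call lost without control 1 or 3 or without COOH SWCNT 1 or 2 (adjusted p up to 0.0974). Fnip1 and Fnip2 encode partners of folliculin, which passes nutrient state to mTORC1 and the TFEB family. Fnip1 rose in (GT)6 SWCNT from 99.95, 97.9 and 92.5 to 126, 133 and 131 CPM (0.42 ± 0.04, adjusted p = 7.18e-10) and in COOH SWCNT (0.20 ± 0.04, adjusted p = 0.000956). It also rose in LPS (0.15 ± 0.04, adjusted p = 0.0108), where the call was lost with upper-quartile factors (adjusted p = 0.0740), with length and GC trends removed (0.180), without control 3 (0.0689) or without LPS 1 (0.0717). Fnip2 fell in LPS from 175, 176 and 177 to 104, 95.1 and 99.3 CPM (-0.82 ± 0.05, adjusted p = 3.21e-17).

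The promoters of the members were searched for the E-box letters that TFEB and TFE3 are known to bind. Promoter windows of 300 bases, from 250 before to 50 after the start, were taken from RefSeq on GRCm38.p6. Of the 41 members 36 have at least 1, with 43 windows in all. A gene was counted as holding the letters if any of its windows did. The letters CACGTG, on either strand, are in 14 of the 36 (38.9%) and in 8.09% of 27025 genes. The longer forms GTCACGTG and TCACGTGA, both of which contain CACGTG, are in 11 (30.6%) and 7 (19.4%) of the members beside 2.55% and 1.12% of all genes. Of the members with CACGTG, 2 of 14 were called in LPS, both lower, beside 6 of 22 members without it. In (GT)6 SWCNT 2 of 14 (1 higher) and 6 of 22 (4 higher) were called, and in COOH SWCNT 3 of 14 (all higher) and 7 of 22 (6 higher). Their median log2 fold change was -0.04 with the letters and -0.03 without them for LPS, 0.07 and 0.03 for (GT)6 SWCNT, and 0.06 and 0.03 for COOH SWCNT. A match of letters is a description of the window and shows no binding.

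Shown here are the windows of the 4 members that hold one of the 8-letter forms and were called in LPS or a nanotube group, so that the position of the E-box can be read beside the values. They belong to the v-ATPase subunit gene Atp6v1a (chr16:44139210-44139509, minus strand), the membrane protein gene Cln3 (chr7:126583187-126583486, minus strand), and the heparan sulfate hydrolase genes Naglu (chr11:101069844-101070143, plus strand) and Sgsh (chr11:119355461-119355760, minus strand). Each is printed 5′ to 3′ in the sense of the gene, with CACGTG, or the longer form on either strand, in capitals. CACGTG begins 131 bases before the start of the printed window's transcript in Atp6v1a, 149 and 121 in Cln3, 73 in Naglu and 29 in Sgsh. Cln3 has another window (chr7:126585768-126586067, minus strand), not printed, which holds no CACGTG.
Atp6v1a: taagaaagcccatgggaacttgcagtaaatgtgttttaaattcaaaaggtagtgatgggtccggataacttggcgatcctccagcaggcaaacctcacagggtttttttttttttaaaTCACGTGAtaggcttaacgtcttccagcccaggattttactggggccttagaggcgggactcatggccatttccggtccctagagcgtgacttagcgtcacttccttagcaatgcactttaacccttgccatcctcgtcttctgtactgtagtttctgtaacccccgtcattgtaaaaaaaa
Cln3: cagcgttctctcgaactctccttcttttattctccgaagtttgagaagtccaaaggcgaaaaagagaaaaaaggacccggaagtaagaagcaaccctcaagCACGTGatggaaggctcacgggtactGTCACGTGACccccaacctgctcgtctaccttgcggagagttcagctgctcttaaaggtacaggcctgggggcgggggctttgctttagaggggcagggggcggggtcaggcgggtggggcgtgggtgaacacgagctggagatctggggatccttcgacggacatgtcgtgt
Naglu: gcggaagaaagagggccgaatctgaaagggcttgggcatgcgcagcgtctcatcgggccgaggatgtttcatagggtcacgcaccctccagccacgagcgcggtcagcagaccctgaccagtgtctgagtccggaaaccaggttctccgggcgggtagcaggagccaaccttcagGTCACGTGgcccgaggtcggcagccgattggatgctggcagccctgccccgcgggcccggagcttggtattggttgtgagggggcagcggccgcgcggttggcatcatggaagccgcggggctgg
Sgsh: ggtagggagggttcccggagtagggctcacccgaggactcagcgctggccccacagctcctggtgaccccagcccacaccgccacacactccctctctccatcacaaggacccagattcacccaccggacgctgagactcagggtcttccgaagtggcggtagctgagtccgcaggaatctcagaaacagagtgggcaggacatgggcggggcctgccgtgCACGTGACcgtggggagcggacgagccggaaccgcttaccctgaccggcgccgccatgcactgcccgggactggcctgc

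Of the 12 proteases and peptidases, none was called for LPS, 1 (higher) for (GT)6 SWCNT and 2 (1 higher, 1 lower) for COOH SWCNT. Ctsb, a cysteine protease and the most counted member, read 3359, 3333 and 3271 CPM in control and 3617, 3590.0 and 3536 with (GT)6 SWCNT, with no overlap, and rose by 7.82% (0.11 ± 0.03, adjusted p = 0.0146). Tpp1, which removes tripeptides from the ends of proteins, read 209, 204 and 206 CPM in control, 188, 192 and 199.8 with LPS and 224, 227 and 224 with COOH SWCNT, and rose in COOH SWCNT (0.13 ± 0.04, adjusted p = 0.0174). That call was lost without control 2 (adjusted p = 0.0574) or without COOH SWCNT 2 (0.0590). Ctss, a cathepsin of antigen-presenting cells, was lower in COOH SWCNT, at 453, 483 and 487 CPM against 528, 514 and 502 (-0.12 ± 0.04, adjusted p = 0.0335). The Ctss change was -0.05 once trends with gene length and GC content were removed (adjusted p = 0.398), and its call stood only without COOH SWCNT 2 among the 6 fits that left out 1 library, with adjusted p up to 0.247 without COOH SWCNT 1.

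The other 9 proteases were not called in any treatment against control. Ctsd stood at 1273, 1276 and 1298 CPM in control and 1362, 1387 and 1278 with (GT)6 SWCNT, groups that overlap. The aminopeptidase Ctsh was 39, 38.3 and 39.6 CPM in control, 41.8, 43 and 41.7 with LPS, 39.1, 35 and 36.7 with (GT)6 SWCNT and 34.7, 35 and 37.7 with COOH SWCNT. Its LPS libraries lay above and its COOH SWCNT libraries below all controls, yet neither difference passed the test (adjusted p = 0.163 and 0.164). Ctsk, at 4.34, 4.81 and 4.7 CPM in control, is the least counted member and the one with the widest spread.

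Among the 9 glycosidase and sulfatase genes, 1 was called (lower) for LPS, 3 (2 higher, 1 lower) for (GT)6 SWCNT and 2 (both higher) for COOH SWCNT. Gaa, the acid glucosidase that breaks down glycogen, stood at 219, 226 and 235 CPM in control, 230.5, 234 and 241 with LPS, 256, 251 and 240.3 with (GT)6 SWCNT and 269, 268 and 247 with COOH SWCNT. Both nanotube groups lay wholly above control, and Gaa rose in COOH SWCNT (0.20 ± 0.04, adjusted p = 0.000299) and in (GT)6 SWCNT (0.14 ± 0.04, adjusted p = 0.0145; adjusted p = 0.0631 without (GT)6 SWCNT 1). Gaa was also higher in Di-2-ANEPEQ and in AAV, 2 treatments that hold no nanotube. Naglu, which removes N-acetylglucosamine from heparan sulfate, read 46.9, 47.9 and 53.9 CPM in control, 54.8, 53.2 and 53.7 with (GT)6 SWCNT and 57.2, 62.9 and 59.9 with COOH SWCNT. It rose by 20.9% in COOH SWCNT (0.27 ± 0.05, adjusted p = 0.000202), the largest rise of a member against control in that group, and was not called in (GT)6 SWCNT (0.12 ± 0.05, adjusted p = 0.116). Hexa, the alpha subunit of hexosaminidase A, rose in (GT)6 SWCNT from 477, 480.5 and 485 to 526, 514 and 516 CPM (0.11 ± 0.03, adjusted p = 0.0130).

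Sgsh, the sulfamidase that works beside Naglu on heparan sulfate, gave the largest log2 fold change of any member against control. It read 9.95, 11.7 and 11.4 CPM in control, 8.21, 6.49 and 7.62 with LPS, 8.25, 8.6 and 7.5 with (GT)6 SWCNT, 12.2, 9.42 and 9.69 with COOH SWCNT and 15.5, 14.2 and 14.1 with DiBASC2. All LPS and (GT)6 SWCNT libraries were below all controls, all DiBASC2 libraries were above them, and COOH SWCNT overlapped control. Sgsh fell by 32.9% in LPS (-0.58 ± 0.11, adjusted p = 6.60e-05) and fell by 26.2% in (GT)6 SWCNT (-0.44 ± 0.11, adjusted p = 0.00212), and rose by 32.1% in DiBASC2 (0.40 ± 0.10, adjusted p = 0.00755). The DiBASC2 call was lost without control 1 (adjusted p = 0.0804) or without DiBASC2 1 (0.0530). On chromosome 11 (GRCm38, 119343425 to 119355536), 955 of the 4414 exon bases of Sgsh are also exon of Card14 on the opposite strand. Card14 itself was lower in LPS, at 9.84, 11.1 and 10.8 CPM against 18.1, 16.6 and 17.7 in control (-0.72 ± 0.08, adjusted p = 2.71e-09), and was not called in (GT)6 SWCNT (-0.09 ± 0.07, adjusted p = 0.484) or DiBASC2 (-0.01 ± 0.07, adjusted p = 0.969). The part of shared reads in the LPS value of Sgsh was not tested.

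Neu1, the lysosomal sialidase, went the other way from Gaa in 2 groups. It read 184, 173 and 195 CPM in control, 168, 163 and 164 with Di-2-ANEPEQ and 159, 158 and 161 with AAV, and 188, 189 and 187 and 182, 192 and 187 with the (GT)6 and COOH nanotube groups, which overlap control. It fell in AAV (-0.21 ± 0.04, adjusted p = 0.00431; adjusted p = 0.0768 without control 3) and in Di-2-ANEPEQ (-0.16 ± 0.04, adjusted p = 0.0321), the latter call lost without control 1 (adjusted p = 0.122), control 3 (0.250), Di-2-ANEPEQ 2 (0.137) or Di-2-ANEPEQ 3 (0.117). Gla, Glb1, Gusb and Man2b1, which remove galactose, glucuronic acid and mannose from glycans, were not called in any treatment.

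Of the 7 lipid genes, LPS lowered 3 and raised none, COOH SWCNT raised 3 and lowered none, and (GT)6 SWCNT raised 1. Ppt1, the thioesterase that removes palmitate from proteins, read 77.4, 76 and 75.1 CPM in control and 65.2, 64.7 and 64.8 with LPS, with no overlap, and fell by 14.8% (-0.23 ± 0.05, adjusted p = 0.000131). In the nanotube groups it was 78.9, 75.5 and 74 and 73.4, 75.9 and 77.8 CPM, overlapping control. Lipa, the acid lipase for cholesteryl esters, fell in LPS from 427, 438 and 432 to 405, 388 and 387 CPM (-0.14 ± 0.03, adjusted p = 0.000920). Npc1, the membrane protein that exports cholesterol from the lysosome, was 111, 119.5 and 112 CPM in control, 108, 97.9 and 100.2 with LPS, 128, 122 and 118 with (GT)6 SWCNT and 129, 130.0 and 124 with COOH SWCNT. It fell in LPS (-0.16 ± 0.05, adjusted p = 0.00830) and rose in COOH SWCNT (0.16 ± 0.05, adjusted p = 0.0156), while its partner Npc2 was not called in any group. The Npc1 call in LPS was lost without control 2 (adjusted p = 0.111), LPS 2 (0.0788) or LPS 3 (0.0572), and that in COOH SWCNT without control 1 (0.0532), without COOH SWCNT 2 (0.0641) or with length and GC trends removed (0.0589).

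Grn, progranulin, a secreted and lysosomal protein whose loss disturbs the lysosomes of microglia, stood at 929, 953 and 917 CPM in control, 871, 872 and 904 with LPS, 1036, 1023 and 964 with (GT)6 SWCNT and 1046, 1072 and 1022 with COOH SWCNT. Both nanotube groups were above and the LPS group below all controls. Grn rose in COOH SWCNT (0.17 ± 0.04, adjusted p = 0.00102) and in (GT)6 SWCNT (0.11 ± 0.04, adjusted p = 0.0271). The (GT)6 call was lost without control 3 (adjusted p = 0.0534), (GT)6 SWCNT 1 (0.103) or (GT)6 SWCNT 2 (0.0782), and the LPS difference was not called (-0.08 ± 0.04, adjusted p = 0.104). Psap, the precursor of the saposins that lift sphingolipids out of membranes, rose in COOH SWCNT from 1292, 1274 and 1267 to 1363, 1414 and 1353 CPM (0.11 ± 0.03, adjusted p = 0.0227), a call lost without control 2 (0.0596) or COOH SWCNT 2 (0.121). The ceramidase gene Asah1 was higher in AAV, at 142, 136 and 134 CPM against 128, 124 and 125 in control (0.13 ± 0.04, adjusted p = 0.0470), and lost its call whichever of the 6 libraries was left out, with adjusted p from 0.0651 without control 1 to 0.145 without AAV 1.

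Of the 6 membrane proteins, Laptm5 was the one that moved in most groups. It encodes a lysosomal membrane protein of blood and immune cells that draws receptors into the lysosome, and read 425, 449 and 438 CPM in control, 390.2, 387 and 414 with LPS, 441, 437 and 435 with (GT)6 SWCNT and 497, 494 and 479 with COOH SWCNT. Every LPS library was below and every COOH SWCNT library above every control, with (GT)6 SWCNT inside the control range. Laptm5 fell in LPS (-0.14 ± 0.04, adjusted p = 0.00256) and rose in COOH SWCNT (0.16 ± 0.04, adjusted p = 0.000909), and both calls held whichever of the 6 libraries was left out. Its relative Laptm4a fell in (GT)6 SWCNT, from 118, 113 and 117 to 97.9, 109 and 107 CPM (-0.15 ± 0.05, adjusted p = 0.0168). That call was lost without control 1 (adjusted p = 0.124), control 3 (0.109) or (GT)6 SWCNT 1 (0.241). Cln3, a membrane protein whose loss causes a juvenile storage disease of neurons, rose in COOH SWCNT from 42.6, 45.7 and 47.4 to 47.8, 50.2 and 52 CPM (0.14 ± 0.05, adjusted p = 0.0346). It lost that call without control 1 (0.149), control 2 (0.0620), COOH SWCNT 2 (0.0840) or COOH SWCNT 3 (0.102), with no low-count filter (0.120) and with length and GC trends removed (0.0990). Lamp1 was 849, 846 and 844 CPM in control, 815, 848 and 844 with LPS, 864, 872 and 846 with (GT)6 SWCNT and 861, 859.9 and 829 with COOH SWCNT. For Lamp1 the 95% intervals of the log2 fold change ran from -0.08 to 0.04 for LPS, -0.04 to 0.09 for (GT)6 SWCNT and -0.06 to 0.07 for COOH SWCNT.

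The v-ATPase showed 1 subunit that rose in LPS and in both nanotube groups. Atp6v0a1, a large subunit of the membrane sector of the pump, read 179, 187 and 184 CPM in control, 209, 205 and 207 with LPS, 214, 216 and 199.8 with (GT)6 SWCNT and 222, 219.6 and 208 with COOH SWCNT. All 9 treated libraries were above all 3 controls, and Atp6v0a1 rose in COOH SWCNT (0.24 ± 0.04, adjusted p = 4.50e-05), in (GT)6 SWCNT (0.20 ± 0.04, adjusted p = 0.000510) and in LPS (0.18 ± 0.04, adjusted p = 0.00119). Atp6v1a, the catalytic subunit of the cytosolic sector, was lower in LPS, at 501, 497 and 499 CPM against 531, 529.6 and 531 in control (-0.09 ± 0.03, adjusted p = 0.0366). This change of -6.03% lost its call whichever of the 6 libraries was left out, with adjusted p from 0.0832 without LPS 1 to 0.128 without LPS 2. It was also lost with DESeq2 size factors (0.0707). The regulatory subunit gene Atp6v1h fell in DiBASC2, to 122, 133 and 123 CPM from 148, 137 and 145 in control (-0.18 ± 0.05, adjusted p = 0.0102), a call lost without control 1 (0.108), DiBASC2 1 (0.0553) or DiBASC2 3 (0.0683). Atp6v0d1 and Atp6ap1, a second membrane-sector subunit and an accessory protein, were not called against control. Of 14 other v-ATPase subunits tested, LPS raised 1 and lowered 2, (GT)6 SWCNT raised 2, and COOH SWCNT raised 1 and lowered 3. Of all genes, LPS raised 13.8% and lowered 14.5%, (GT)6 SWCNT 9.90% and 10.5%, and COOH SWCNT 9.39% and 10.6%.

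Comparing nanotubes with LPS directly, without the shared control libraries, gave more calls, most of them higher in the nanotube group. (GT)6 SWCNT differed from LPS in 17 members, 15 higher and 2 lower, beside 21.6% of all genes in either direction, 9.63% higher and 11.9% lower. COOH SWCNT differed in 21, 17 higher and 4 lower, beside 37.8%, with 18.1% higher and 19.7% lower. The median over the members was 0.07 in both, beside -0.0046 and 0.01 over all genes. Of the 41 members, 9 (22.0%) were higher in both nanotube groups than in LPS, beside 7.11% of all genes tested, a count that shares the 3 LPS libraries: Atp6v0d1, Atp6v1a, Ctsa, Grn, Laptm5, Npc1, Ppt1, Psap and Tpp1. The (GT)6 call of Ctsa was lost without LPS 1 (adjusted p = 0.0625) or (GT)6 SWCNT 2 (0.0562). That of Tpp1 was lost without LPS 1 (0.0675), (GT)6 SWCNT 1 (0.069) or (GT)6 SWCNT 2 (0.0839). The COOH call of Ctsa was lost with length and GC trends removed (0.136). With upper-quartile factors the splits were 18 higher and 0 lower for (GT)6 SWCNT and 24 and 1 for COOH SWCNT. The same factors moved all genes the same way, from 1263 higher and 1566 lower to 1695 and 1251 for (GT)6 SWCNT and from 2374 and 2580 to 3307 and 1980 for COOH SWCNT. The (GT)6 SWCNT count fell to 10 without LPS 1, LPS 2 or (GT)6 SWCNT 1 and to 11 without (GT)6 SWCNT 2.

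Npc1 was the member with the largest rise over LPS in (GT)6 SWCNT (0.27 ± 0.05, adjusted p = 4.32e-05), followed by Ppt1 (0.23 ± 0.05, adjusted p = 0.000162) and Grn (0.19 ± 0.04, adjusted p = 0.000111). In COOH SWCNT the largest rise over LPS was that of Sgsh (0.50 ± 0.11, adjusted p = 0.000298), followed by Npc1 (0.32 ± 0.05, adjusted p = 9.97e-07), Laptm5 (0.30 ± 0.04, adjusted p = 1.06e-08), Tfeb (0.28 ± 0.10, adjusted p = 0.0233) and Grn (0.25 ± 0.04, adjusted p = 1.15e-06). Card14, which shares exon bases with Sgsh, also rose over LPS in COOH SWCNT (0.70 ± 0.08, adjusted p = 3.93e-09). The part of shared reads in this Sgsh rise was not tested. The Tfeb difference was lost without LPS 1 (adjusted p = 0.0726), LPS 3 (0.10) or COOH SWCNT 3 (0.0715), and fell to 0.11 with length and GC trends removed (0.371). Atp6v0d1, not called against control, read 229, 235 and 244 CPM with LPS, 265, 260.2 and 264 with (GT)6 SWCNT and 254, 271 and 255 with COOH SWCNT, and was higher than LPS in both (0.16 ± 0.03, adjusted p = 0.000649 and 0.14 ± 0.03, adjusted p = 0.00119). Ctsa, the carboxypeptidase that protects Neu1 and Glb1, was 758, 791 and 834 CPM with LPS, 872, 892 and 845 with (GT)6 SWCNT and 866, 889 and 856 with COOH SWCNT, with control at 825, 822 and 816.

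The members lower in nanotubes than in LPS were proteases and 1 pump subunit. Ctsh was lower in COOH SWCNT (-0.24 ± 0.06, adjusted p = 0.00164) and in (GT)6 SWCNT (-0.19 ± 0.06, adjusted p = 0.0183), the latter call lost without LPS 2 (adjusted p = 0.0788), (GT)6 SWCNT 2 (0.136) or (GT)6 SWCNT 3 (0.0501). The dipeptidyl peptidase Ctsc was lower in (GT)6 SWCNT (-0.12 ± 0.04, adjusted p = 0.0199) and in COOH SWCNT (-0.09 ± 0.04, adjusted p = 0.0477), and neither call held with upper-quartile factors (adjusted p = 0.0831 and 0.377). The (GT)6 call of Ctsc was lost without LPS 2 (adjusted p = 0.0556), LPS 3 (0.118), (GT)6 SWCNT 2 (0.0834) or (GT)6 SWCNT 3 (0.0642), and the COOH call was lost without LPS 2 (adjusted p = 0.0813), LPS 3 (0.13) or COOH SWCNT 3 (0.370). Ctss was lower in COOH SWCNT than in LPS (-0.13 ± 0.04, adjusted p = 0.00674), but the difference turned to 0.02 with length and GC trends removed, and the call was lost without LPS 3 (adjusted p = 0.0679) or COOH SWCNT 1 (0.0641). Atp6v1h was lower in COOH SWCNT (-0.12 ± 0.05, adjusted p = 0.0402), with adjusted p of 0.277 under upper-quartile factors, and its call was lost without LPS 1 (adjusted p = 0.146), LPS 2 (0.0637), COOH SWCNT 1 (0.0614) or COOH SWCNT 2 (0.115).

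**Figure D5:**
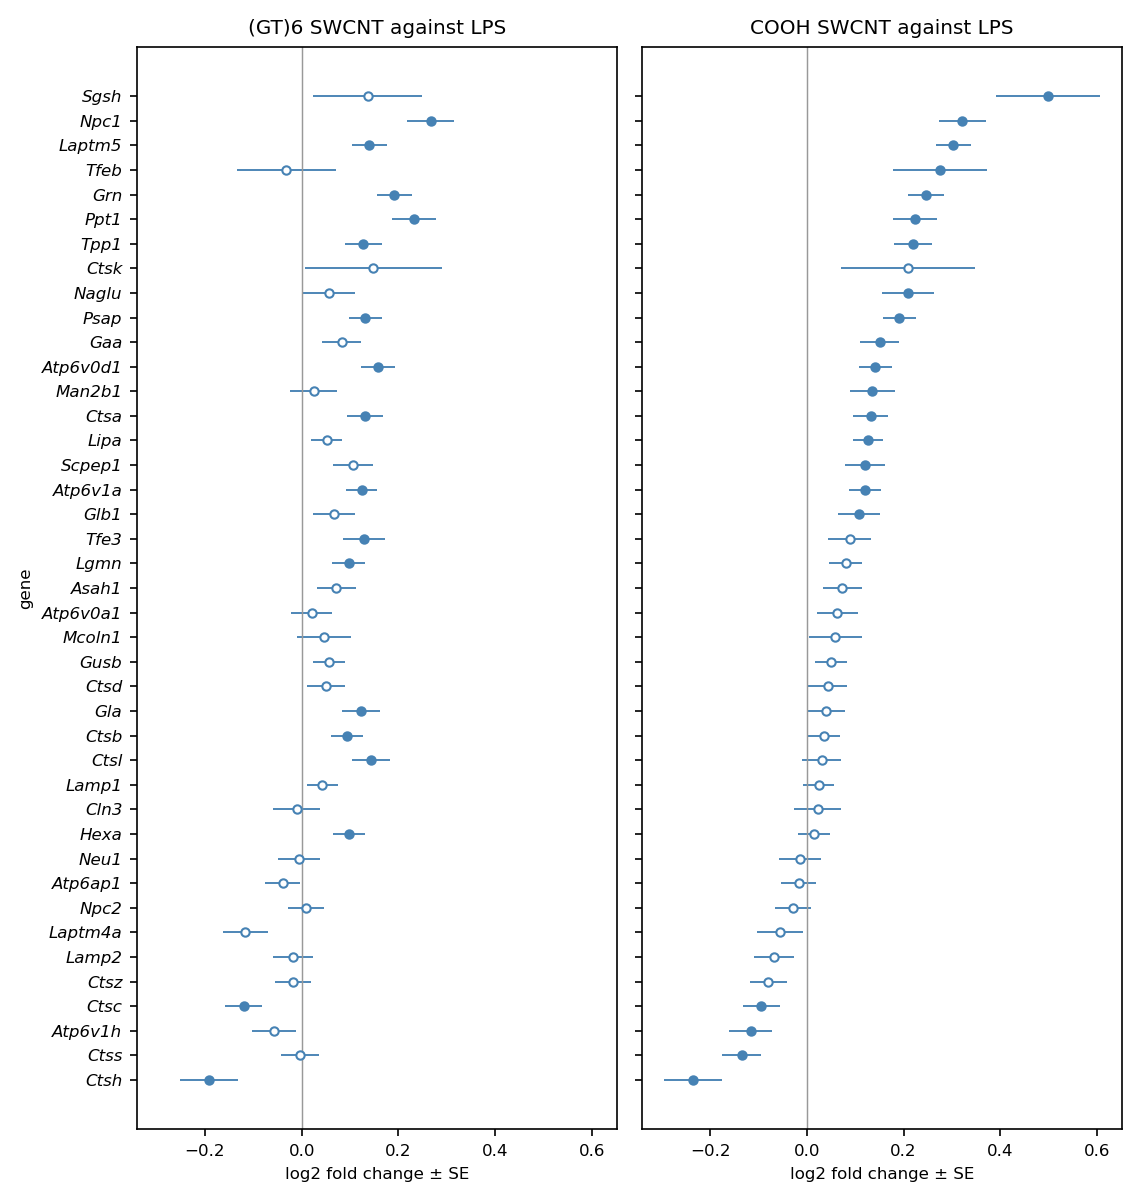
Log2 fold change ± SE of the 41 listed genes in (GT)6 SWCNT (left) and COOH SWCNT (right) against the 3 LPS libraries, ordered by the right panel on a shared axis; filled points have an adjusted p under 0.05. On the left 15 filled points are above 0 and 2 below; on the right 17 are above and 4 below, from Ctsh at -0.24 to Sgsh at 0.50.

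The 2 nanotube preparations differed from each other in 6 members, 2 higher and 4 lower in (GT)6 SWCNT, beside 21.4% of all genes (11.9% higher and 9.48% lower). Lower in (GT)6 SWCNT than in COOH SWCNT were Sgsh (-0.36 ± 0.10, adjusted p = 0.0109), Tfeb (-0.31 ± 0.10, adjusted p = 0.0194), Laptm5 (-0.16 ± 0.04, adjusted p = 0.000956) and Naglu (-0.15 ± 0.05, adjusted p = 0.0332). Ctss (0.13 ± 0.04, adjusted p = 0.0156) and Ctsl (0.11 ± 0.04, adjusted p = 0.0393), both cysteine cathepsins, were higher. Laptm5 kept its call whichever library was left out, and the others did not. The Sgsh call was lost without (GT)6 SWCNT 3 (adjusted p = 0.0540) or COOH SWCNT 1 (0.190). The Tfeb call was lost without (GT)6 SWCNT 1 (adjusted p = 0.0826), (GT)6 SWCNT 3 (0.136) or COOH SWCNT 3 (0.0745). The Naglu call was lost without (GT)6 SWCNT 1 (adjusted p = 0.0695), (GT)6 SWCNT 2 (0.114), (GT)6 SWCNT 3 (0.0851), COOH SWCNT 2 (0.229) or COOH SWCNT 3 (0.0746). The Ctsl call was lost without (GT)6 SWCNT 1 (adjusted p = 0.158), (GT)6 SWCNT 2 (0.0516) or COOH SWCNT 1 (0.144), and that of Ctss was lost without COOH SWCNT 1 (adjusted p = 0.111). The count was 3 without (GT)6 SWCNT 1, (GT)6 SWCNT 3 or COOH SWCNT 1, and with upper-quartile factors 1 was higher and 7 lower, while all genes went from 1557 higher and 1244 lower to 1283 and 1604. Removing length and GC trends took Tfeb to -0.18, Naglu to -0.09 and Ctss to 0.04 (adjusted p = 0.188, 0.192 and 0.511). Labels give no dose for either preparation, so doses may differ.

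Dyes and virus moved few members. Fura-2 changed 0 of 41 by edgeR's quasi-likelihood test, beside 0.252% of all genes (0.0381% higher and 0.213% lower). Of the members 6 (14.6%) had an unadjusted p under 0.05, beside 10.8% of all genes, and DESeq2 also called 0 members. The count was 1 without Fura-2 1, when Laptm4a reached an adjusted p of 0.0488. Over all genes the Fura-2 count of 33 was 0 without control 1, control 3, Fura-2 2 or Fura-2 3, 57 without control 2 and 106 without Fura-2 1. DiBASC2 changed 3 beside 5.47% of all genes (1.82% higher and 3.64% lower): Sgsh higher, Tfe3 and Atp6v1h lower, as given with each gene. That count was 1 without control 1 or without DiBASC2 1. The all-gene count of 717 was 333 without control 1 and 459 without DiBASC2 3.

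Di-2-ANEPEQ changed 3 members, 2 higher and 1 lower, beside 3.08% of all genes (0.686% and 2.39%). AAV changed 5, 3 higher and 2 lower, beside 5.00% (1.84% and 3.16%). Gaa and Laptm5 were called higher, and Neu1 lower, in each of them, with the same controls. Gaa read 251, 254 and 264 CPM with Di-2-ANEPEQ (0.18 ± 0.04, adjusted p = 0.0105) and 243, 268 and 262 with AAV (0.18 ± 0.04, adjusted p = 0.00641), all above control. In Di-2-ANEPEQ the Gaa call was lost without control 1 (adjusted p = 0.0853) or Di-2-ANEPEQ 3 (0.0705), and in AAV it was lost without AAV 2 (adjusted p = 0.0569). Laptm5 was 463, 484 and 493 CPM with Di-2-ANEPEQ (0.13 ± 0.04, adjusted p = 0.0301) and 466, 483 and 475 with AAV (0.12 ± 0.04, adjusted p = 0.0480). The first of these calls was lost without control 1 (adjusted p = 0.167), control 3 (0.0947), Di-2-ANEPEQ 2 (0.129) or Di-2-ANEPEQ 3 (0.151), and the second was lost without control 1 (adjusted p = 0.150), control 3 (0.117), AAV 2 (0.142) or AAV 3 (0.107). AAV also lowered Laptm4a, to 106, 100.05 and 98.5 CPM (-0.20 ± 0.05, adjusted p = 0.00996), a call lost without control 1 (adjusted p = 0.0639), control 3 (0.0691), AAV 2 (0.0752) or AAV 3 (0.0685). These calls are close to the threshold: the Di-2-ANEPEQ count was 0 without control 1 or Di-2-ANEPEQ 3 and 1 without control 3 or Di-2-ANEPEQ 2. Over all genes its count of 404 was 120 without control 1, 165 without control 3, 129 without Di-2-ANEPEQ 2 and 190 without Di-2-ANEPEQ 3. The AAV count was 1 without control 3 or AAV 2, 2 without control 1 or AAV 3, and 4 with upper-quartile factors (1 higher and 3 lower). Over all genes the AAV count of 656 was 273 without control 1, 157 without control 3, 177 without AAV 2 and 278 without AAV 3, and upper-quartile factors moved the split from 241 higher and 415 lower to 179 and 502. Under those factors Laptm5 in AAV had an adjusted p of 0.0655.

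Beyond the 41 members, 119 of 135 further lysosomal genes, listed by role, were tested. LPS changed 35 of them (9 higher, 26 lower), 29.4% beside the 28.3% of all genes. (GT)6 SWCNT changed 24 (15 and 9), 20.2% beside 20.4%, and COOH SWCNT 29 (17 and 12), 24.4% beside 20.0%. By role, LPS lowered 8 and raised 1 of 20 genes for sorting to the lysosome, lowered 6 and raised 2 of 22 other membrane proteins and transporters, and lowered 4 and raised 2 of 32 other hydrolases and activators. In COOH SWCNT 7 of the 32 hydrolases and 4 of the 22 membrane proteins were higher, and 2 and 1 lower. In (GT)6 SWCNT 3 hydrolases were higher and 4 lower, and 2 membrane proteins were higher and 1 lower. Of the sorting genes, 3 were higher and 2 lower in (GT)6 SWCNT, and 2 were higher in COOH SWCNT with none lower. Of 14 genes of the response to damaged lysosomes, LPS raised 1 and lowered 3, (GT)6 SWCNT raised 1 and lowered 1, and COOH SWCNT raised 2 and lowered 2. Beside these counts by role, LPS raised 13.8% and lowered 14.5% of all genes. For (GT)6 SWCNT the shares were 9.90% and 10.5%, and for COOH SWCNT 9.39% and 10.6%.

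In LPS the log2 fold changes of these further genes ran from -1.17 to 1.17, those of the members from -0.58 to 0.18. Sqstm1, the autophagy receptor, rose in LPS from 534, 525 and 528 to 999, 1014 and 1085 CPM (0.96 ± 0.04, adjusted p = 4.24e-22) and less in (GT)6 SWCNT, to 661, 625 and 618 (0.26 ± 0.04, adjusted p = 1.27e-06). (GT)6 SWCNT was lower than LPS in the direct test (-0.70 ± 0.04, adjusted p = 1.12e-17). Mcoln2, a calcium channel related to Mcoln1, rose in LPS (0.61 ± 0.05, adjusted p = 1.45e-12), where Mcoln1 was not called (0.05 ± 0.06, adjusted p = 0.615). Trim16, a ubiquitin ligase that acts on damaged lysosomes, fell in LPS from 17.3, 17.9 and 17.7 to 7.88, 7.96 and 7.62 CPM (-1.17 ± 0.08, adjusted p = 2.03e-14), in (GT)6 SWCNT to 13.1, 10.9 and 11.4 (-0.58 ± 0.08, adjusted p = 2.47e-07) and in COOH SWCNT to 14, 15 and 15.4 (-0.25 ± 0.07, adjusted p = 0.0119; adjusted p = 0.0916 without COOH SWCNT 1). Sqstm1 and Trim16 share exon bases with Mrnip and Fbxw10, so their counts are uncertain to that extent. Pla2g15, a lysosomal phospholipase, fell in LPS from 31.3, 34.1 and 31.8 to 19.3, 16 and 18 CPM (-0.87 ± 0.06, adjusted p = 6.67e-14) and in (GT)6 SWCNT (-0.44 ± 0.06, adjusted p = 6.04e-07). The nucleoside transporter gene Slc29a3 fell in (GT)6 SWCNT from 30.0, 30.8 and 32.6 to 23.6, 24.8 and 24.5 CPM (-0.36 ± 0.08, adjusted p = 0.000591).

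Fnip1 gave the largest rise among the further genes in (GT)6 SWCNT. Besides Fnip1 and Sqstm1, Idua, the iduronidase of heparan and dermatan sulfate, rose in (GT)6 SWCNT from 19.9, 20.3 and 21 to 26.1, 25.1 and 23 CPM (0.28 ± 0.07, adjusted p = 0.00367). Among the further genes called in COOH SWCNT the highest were Sidt2, a membrane protein of nucleic acid uptake (0.20 ± 0.05, adjusted p = 0.00176), Fnip1, and the sorting adaptor gene Gga1 (0.19 ± 0.04, adjusted p = 0.00137; adjusted p = 0.187 with length and GC trends removed). Lyz2, lysozyme, fell in COOH SWCNT from 530.1, 492 and 502 to 352, 393 and 424 CPM (-0.38 ± 0.06, adjusted p = 2.75e-06), with (GT)6 SWCNT at 423, 403 and 438. Against LPS, 35 of the 119 were higher in (GT)6 SWCNT and 7 lower. The higher were led by Trim16 (0.60 ± 0.09, adjusted p = 1.23e-06) and Fnip2 (0.60 ± 0.05, adjusted p = 4.51e-13). The lower were led by Tfec (-1.37 ± 0.07, adjusted p = 1.43e-17), then Sqstm1, with its value given above, and Mcoln2 (-0.60 ± 0.05, adjusted p = 3.20e-12). In COOH SWCNT 48 were higher than in LPS and 21 lower, led by Trim16 (0.92 ± 0.08, adjusted p = 2.08e-11), Slc29a3 (0.86 ± 0.08, adjusted p = 3.45e-11) and Pla2g15 (0.76 ± 0.06, adjusted p = 2.87e-12) and, among the lower, by Tfec (-1.44 ± 0.07, adjusted p = 1.93e-18) and Sqstm1 (-0.82 ± 0.04, adjusted p = 9.12e-20). Between the nanotubes 18 were higher in (GT)6 SWCNT and 19 lower; among these called genes, the Ragulator gene Lamtor3 (0.32 ± 0.05, adjusted p = 2.63e-06), Gnptg of the mannose 6-phosphate tag (0.29 ± 0.08, adjusted p = 0.00877) and the pump subunit gene Atp6v1f (0.28 ± 0.04, adjusted p = 1.19e-05) were highest and Slc29a3 (-0.41 ± 0.08, adjusted p = 0.000110), Pla2g15 (-0.33 ± 0.06, adjusted p = 0.000129) and Trim16 (-0.32 ± 0.08, adjusted p = 0.00227) lowest. Of these 6 calls, that of Gnptg was lost without (GT)6 SWCNT 1 (adjusted p = 0.0636). Over all genes, 9.63% were higher and 11.9% lower in (GT)6 SWCNT than in LPS, and 18.1% and 19.7% in COOH SWCNT. Between the nanotubes, 11.9% of all genes were higher and 9.48% lower in (GT)6 SWCNT. As given above, upper-quartile factors moved the all-gene splits against LPS towards higher.

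With each of the dyes and AAV, the pump subunit gene Atp6v0e gave the largest fall among the further genes called. It read 240.5, 219 and 241 CPM in control, 203, 197 and 176 with Fura-2, 206, 212 and 187 with DiBASC2, 181, 189.8 and 189.6 with Di-2-ANEPEQ and 196, 175 and 191 with AAV, all below control. Its changes were -0.28 ± 0.06, adjusted p = 0.0233 for Fura-2, -0.21 ± 0.06, adjusted p = 0.0275 for DiBASC2, -0.32 ± 0.06, adjusted p = 0.00115 for Di-2-ANEPEQ and -0.32 ± 0.06, adjusted p = 0.00129 for AAV, on the same 3 control libraries. The Fura-2 call was lost without control 1 (adjusted p = 0.204), control 3 (0.161), Fura-2 2 (0.0835) or Fura-2 3 (0.314), and the DiBASC2 call without control 1 (0.155), control 3 (0.124) or DiBASC2 3 (0.209) and with upper-quartile factors (0.0699). Of the 119 genes, Fura-2 changed 1 (0.84% beside 0.252% of all genes) and DiBASC2 5 (1 higher, 4 lower; 4.20% beside 5.47%). Di-2-ANEPEQ changed 3 (1 and 2; 2.52% beside 3.08%) and AAV 8 (4 and 4; 6.72% beside 5.00%). In DiBASC2 Fnip2 rose (0.19 ± 0.04, adjusted p = 0.00802), while Fnip1 (-0.18 ± 0.04, adjusted p = 0.0120) and Rheb, the GTPase that switches on mTORC1 (-0.17 ± 0.05, adjusted p = 0.0280), fell. The sulfatase activator gene Sumf1 was higher in Di-2-ANEPEQ (0.15 ± 0.04, adjusted p = 0.0391), and Chmp2a, of the membrane repair machinery ESCRT, in AAV (0.17 ± 0.05, adjusted p = 0.0314). The Fnip2 call in DiBASC2 was lost without DiBASC2 3 (adjusted p = 0.0921). The Fnip1 call in DiBASC2 was lost without control 1 (adjusted p = 0.122), control 2 (0.0635) or DiBASC2 3 (0.111). The Rheb call in DiBASC2 was lost without control 1 (adjusted p = 0.219), control 2 (0.0807), DiBASC2 2 (0.123) or DiBASC2 3 (0.0527). The Sumf1 call in Di-2-ANEPEQ was lost without control 1 (adjusted p = 0.155), control 2 (0.0715), control 3 (0.105), Di-2-ANEPEQ 1 (0.105), Di-2-ANEPEQ 2 (0.189) or Di-2-ANEPEQ 3 (0.0556). The Chmp2a call in AAV was lost without control 2 (adjusted p = 0.0931), control 3 (0.129), AAV 2 (0.0744) or AAV 3 (0.133).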

How the data were processed

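Poly-A RNA of 24 SIM-A9 libraries was sequenced, with reads aligned by STAR 2.5.4b to GRCm38.p6 per the submitters' processing notes. The deposited values are raw read counts per gene, made by the authors from those reads; the counting tool, its use of strand and the annotation release are not given in the sources used here. Gene symbols, exon lengths and overlaps came from GENCODE M21, where 54809 of the 54838 gene identifiers were found.

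Genes were filtered with filterByExpr, scaled by TMM and fitted over all 24 libraries with 1 mean per group by edgeR 4.0.16 (R 4.3.3), whose quasi-likelihood test gave 10 comparisons, each with Benjamini-Hochberg adjustment over 13116 genes and a threshold of 0.05. An SE is the absolute log2 fold change divided by the square root of F. CPM uses TMM-scaled library sizes. Alternatives were DESeq2 1.42.0 size factors and test, upper-quartile factors, fitting only the 2 groups compared, keeping genes of any count or only those averaging 50 counts or more, the replicate number as a block, removal of trends with exon length and GC content, and leaving out each library.

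Members and lists were chosen with earlier results of these data known. Members given library by library are the called ones with the largest change, up to 6 in each direction, with Tfeb and Tfe3 whatever their values, and further members as examples; of the further genes, up to 3 in each direction are named per comparison, and 1 for Fura-2, Di-2-ANEPEQ and AAV. Promoter sequences are from RefSeq.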

Additional observations from a re-analysis of the deposited data

How the results depend on the processing

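Apart from leaving out 1 library, few settings moved the counts of members called by over 1.5 times. For LPS the count of 9 became 16 with upper-quartile factors and 15 with length and GC trends removed. For Di-2-ANEPEQ the count of 3 became 6 with only the 2 groups compared, and for AAV the count of 5 became 3 with no low-count filter and 9 with length and GC trends removed; the cause was not tested. Leaving out 1 library gave 7 to 10 members for LPS, 6 to 10 for (GT)6 SWCNT, 7 to 10 for COOH SWCNT, 0 to 1 for Fura-2, 1 to 4 for DiBASC2, 0 to 3 for Di-2-ANEPEQ and 1 to 6 for AAV. It gave 10 to 17 for (GT)6 SWCNT against LPS, 16 to 19 for COOH SWCNT against LPS and 3 to 6 between the nanotubes. Several of these counts thus moved by over 1.5 times. Over all fits that left out 1 library, results of called members kept their call 369 times and lost it 135 times. With the replicate number as a block, 83 of the 84 called member results kept their call; Asah1 in AAV did not, the AAV count was 4 and the LPS count 10. The labels tie the numbers to nothing shared: deviations of same-numbered libraries correlated between -0.104 and 0.0696, and in 25 of 60 cases (6 libraries in each of 10 comparisons) a library correlated best with its own number. With length and GC trends removed, Ctss in COOH SWCNT against LPS turned to 0.024 and Atp6v1g1, a pump subunit gene, to 0.010, 18 further member calls were lost, and all-gene counts were 53 for Fura-2 (33 as reported) and 1260 for DiBASC2 (717). Fura-2 gave 188 genes with no low-count filter, 64 with the DESeq2 test and 80 with only the 2 groups, where Di-2-ANEPEQ gave 814 (404). Depth limits the least counted member most: for Ctsk, with a lowest count of 74, the 95% interval of the log2 fold change in LPS ran from -0.34 to 0.22.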
